A study of Homo sapiens with 2 samples.

Results

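Levels of 10 genes of the immediate early and heat shock responses were read in single nonadherent cells collected on day 5 of the endothelial-to-hematopoietic transition (EHT). The 10 genes were FOS, FOSB, JUN, JUNB, JUND, EGR1, IER2, DUSP1, ATF3 and HSPA1A, chosen by symbol among 32738 genes, and each symbol was found once. CD34+ cells made from the human induced pluripotent stem cell line IPS11 had been cultured in wells that were Uncoated or coated with VCAM1, DLL4 or DLL4+VCAM1. VCAM1 is an adhesion molecule of endothelium and stroma, and DLL4 is a Notch ligand. The wells of a condition were pooled, the cells of each condition were stained on ice with 1 of 4 hashtag antibodies (0252, 0253, 0254 and 0255), and all went into 1 droplet library. All groups therefore share 1 line, 1 day and 1 library, and the coating behind each hashtag number is not given in the sources used here, so hashtags are named by number. Of 10836 barcodes, 7550 had a single hashtag call and passed the limits of 36000 UMIs (counted RNA molecules), 6000 genes and 18% mitochondrial UMIs, with a median of 18318.5 UMIs a cell. Cells are not replicates, and 1 library allows no test between groups, so each value is the CPM of a gene (its counts per 1000000 UMIs), summed over a group of cells, followed by an exact 95% interval that covers counting error only.

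Immediate early genes are switched on within minutes of a growth factor, cytokine or stress signal, without new protein synthesis, by transcription factors that already sit in the cell. FOS, FOSB, JUN, JUNB and JUND encode the subunits of the AP-1 transcription factor, in which a FOS protein pairs with a JUN protein. EGR1 encodes a zinc finger transcription factor, IER2 a small nuclear protein, DUSP1 a phosphatase that shuts off MAP kinases, and ATF3 a stress-induced repressor of the ATF/CREB family. HSPA1A encodes the inducible chaperone HSP70, which heat shock factor 1 switches on when proteins unfold. The same genes are known to rise in blood cells during dissociation and sorting.

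The stretches before the gene starts are shown for FOS, FOSB, JUN, JUNB, JUND, EGR1 and HSPA1A. Those of IER2, DUSP1 and ATF3 were read as well but are not shown. They are the 250 bases before the RefSeq start (GRCh38.p14), and capitals mark TGACG on either strand (the core of a cAMP response element), TATAA on the sense strand (a TATA box), GAANNTTC (paired heat shock element units) and the CArG box bound by serum response factor.
FOS, chr14:75278578-75278827 (plus strand): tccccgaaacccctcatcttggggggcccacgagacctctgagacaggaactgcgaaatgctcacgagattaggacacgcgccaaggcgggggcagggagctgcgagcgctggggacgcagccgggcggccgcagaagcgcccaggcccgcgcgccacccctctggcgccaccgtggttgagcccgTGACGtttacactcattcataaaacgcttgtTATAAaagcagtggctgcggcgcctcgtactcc
FOSB, chr19:45467746-45467995 (plus strand): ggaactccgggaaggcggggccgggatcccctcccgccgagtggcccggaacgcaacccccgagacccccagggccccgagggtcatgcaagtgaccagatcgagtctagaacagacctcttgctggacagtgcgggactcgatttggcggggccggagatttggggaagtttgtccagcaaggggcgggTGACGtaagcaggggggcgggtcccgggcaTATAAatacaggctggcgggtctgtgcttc
JUN, chr1:58784048-58784297 (minus strand): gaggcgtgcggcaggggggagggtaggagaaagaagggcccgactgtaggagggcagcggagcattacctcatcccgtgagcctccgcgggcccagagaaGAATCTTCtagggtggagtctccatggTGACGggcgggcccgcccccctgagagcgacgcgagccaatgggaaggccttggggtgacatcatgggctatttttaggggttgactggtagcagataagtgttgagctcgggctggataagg
JUNB, chr19:12791236-12791485 (plus strand): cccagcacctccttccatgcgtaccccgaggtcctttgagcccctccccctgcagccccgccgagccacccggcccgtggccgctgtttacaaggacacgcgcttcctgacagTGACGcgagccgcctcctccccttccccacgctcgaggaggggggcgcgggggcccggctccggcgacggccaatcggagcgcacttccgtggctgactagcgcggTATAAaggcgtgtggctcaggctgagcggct
JUND, chr19:18281623-18281872 (minus strand): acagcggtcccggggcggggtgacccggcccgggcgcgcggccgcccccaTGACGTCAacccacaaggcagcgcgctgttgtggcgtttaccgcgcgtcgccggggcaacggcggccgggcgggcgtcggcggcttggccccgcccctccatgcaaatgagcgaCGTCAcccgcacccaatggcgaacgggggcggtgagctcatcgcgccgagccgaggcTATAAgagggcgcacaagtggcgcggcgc
EGR1, chr5:138465229-138465478 (plus strand): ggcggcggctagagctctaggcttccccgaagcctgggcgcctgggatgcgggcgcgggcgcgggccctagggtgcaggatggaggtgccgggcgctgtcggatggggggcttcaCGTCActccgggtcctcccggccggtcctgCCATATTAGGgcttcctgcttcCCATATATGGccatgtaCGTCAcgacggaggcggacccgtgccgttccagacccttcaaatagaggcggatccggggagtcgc
HSPA1A, chr6:31815293-31815542 (plus strand): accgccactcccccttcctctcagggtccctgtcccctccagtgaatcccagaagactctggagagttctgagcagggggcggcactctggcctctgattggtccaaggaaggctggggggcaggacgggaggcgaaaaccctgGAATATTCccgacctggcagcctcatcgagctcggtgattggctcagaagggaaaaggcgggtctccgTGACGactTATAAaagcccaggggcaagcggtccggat
TGACG stood in 9 of the 10 stretches, ATF3 being the exception, and in 21.2% of 35116 RefSeq promoters of this length. Only the first listed RefSeq start of each gene was read, so the lack of TGACG in ATF3 holds for that start alone. TATAA stood in 6 of 10 against 13.6% of all, and its first base lay 33 bases before the FOS start, 30 before FOSB and 29 before JUND. GAANNTTC was found in HSPA1A and JUN (5.78% of all), and the CArG box in EGR1 alone, at 105 and 83 bases before its start (1.16% of all). These are matches of letters, chosen after the stretches were seen. Bases farther than 250 before a start were not searched, so the lack of a CArG box in FOS and the other members holds for these stretches alone. TGACG matched 1 time in FOS and 3 times in JUND. The JUND matches at 200 and 197 bases before the start overlap as both strands of a single TGACGTCA, which FOS lacked. The part of these letters in the levels of the genes was not tested.

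Cells were grouped by gates on marker UMIs. The gates were CD34/GATA2 (2 genes of blood progenitors, 1573 cells), SPINK2 (a gene of early multipotent progenitors, 1170 cells), C1Q (complement genes of macrophages, 637 cells), ELANE (neutrophil elastase, 71 cells), PF4/PPBP (platelet chemokines, 103 cells) and collagen (88 cells), with 3900 cells in none and 8 in more than 1. The CD34/GATA2 gate also held genes of other lineages, with HDC (histidine decarboxylase of mast cells and basophils) at 125.5 CPM, HBD (a globin) at 262.6 CPM, ITGA2B (a platelet integrin) at 141.7 CPM and KLF1 (an erythroid factor) at 28.9 CPM, against 11.5, 4.23, 19.1 and 3.76 CPM in the SPINK2 gate, so it is named by its rule as well. In other gates, markers not used for gating followed the gate's genes. CD14 reached 105.8 CPM in the C1Q gate and at most 4.4 CPM in the other gates, PRTN3 21138 CPM in the ELANE gate, and TAGLN 3319.3 CPM in the collagen gate. The PF4/PPBP gate held ITGA2B at 510 CPM but also globin HBG2 at 5342.7 CPM, and it rested on PPBP (3347.5 CPM) far more than on PF4 (33.5 CPM), so it is named by its rule. C1QA lay at 605.5 CPM in the C1Q gate, 1.2 to 2.0 CPM in the CD34/GATA2, SPINK2, ELANE and PF4/PPBP gates and 15.9 CPM in the collagen gate, where the gates leave out cells with 10 C1Q UMIs by rule. With 38, 25, 5 and 3 cells for hashtags 0252, 0253, 0254 and 0255, the ELANE gate came mostly from the first pair, while 50 of the 88 collagen cells carried 0255.

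Macrophage-marker cells stood above every other gate in FOS and JUNB, and were highest in DUSP1 and ATF3 with intervals that overlapped those of collagen cells. FOS stood at 134 CPM (126 to 141) in the C1Q gate, 85.3 (68.0 to 106) in the ELANE gate, 43.4 (33.1 to 55.9) in the collagen gate, 27.7 (25.7 to 29.8) in the SPINK2 gate, 25.1 (18.7 to 33.0) in the PF4/PPBP gate and 18.7 (17.3 to 20.2) in the CD34/GATA2 gate. The C1Q gate thus stood above every other gate, and the PF4/PPBP interval overlapped those of the SPINK2 and CD34/GATA2 gates. Against the CD34/GATA2 gate, FOS was 7.14 times higher in C1Q cells (interval 6.49 to 7.87), DUSP1 4.78 times (4.04 to 5.67), JUN 4.04 times (3.40 to 4.80), JUNB 2.93 times (2.74 to 3.14) and FOSB 2.62 times (2.28 to 3.01). ATF3 had the widest contrast, with 246 UMIs in the C1Q gate (26.1 CPM) and 34 in the CD34/GATA2 gate (1.01 CPM), a ratio of 26.0 (18.1 to 38.4). Only 10.0% of C1Q cells held an ATF3 UMI, with up to 24 in a cell. The counting interval does not cover that unevenness between cells. For counts of genes past a fold, here and in what follows, 1 CPM was first added to each value. In this way 6 of 10 members were at least 2 times higher in the C1Q gate and none was at least 2 times lower. Of 5557 genes averaging at least 20 CPM over both gates, 9.34% were that much higher and 7.25% that much lower, and 4 of the 7 members above this minimum were higher. With no minimum, 7.40% of all genes were higher.

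The remaining 4 members differed less between these gates. EGR1 was 1.89 times higher in C1Q cells (1.56 to 2.28), HSPA1A 1.47 times (1.26 to 1.71) and JUND 1.13 times (1.08 to 1.18), whereas IER2 was slightly lower at a ratio of 0.91 (0.85 to 0.98). HSPA1B, a near-identical copy of HSPA1A, stood on the other side of 1 in this contrast, at 0.77 (0.59 to 1.01). The order of IER2 and JUND was set by other cells. IER2 peaked in the PF4/PPBP gate at 187 CPM (168 to 206) and stood at 77.9 CPM (74.6 to 81.4) in the SPINK2 gate and 73.8 CPM (60.2 to 89.6) in the collagen gate. JUND also peaked in the PF4/PPBP gate, at 427 CPM (399 to 457), lay between 271 and 321 CPM in the collagen, CD34/GATA2, SPINK2 and C1Q gates, and was lowest in the ELANE gate at 87.3 CPM (69.9 to 108). Elastase cells were thus low in JUND, 0.31 times the CD34/GATA2 level (0.25 to 0.38, 86 UMIs), and high in FOSB, at 72.1 CPM (56.3 to 91.0) against 14.5 CPM. The FOSB value rested on 71 UMIs.

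Collagen cells had the highest JUN level of any gate, 67.3 CPM (54.3 to 82.4) against 3.72 CPM (3.01 to 4.55) in the SPINK2 gate, together with DUSP1 at 26.8 CPM (18.9 to 36.9) and ATF3 at 20.3 CPM (13.5 to 29.3), whose intervals overlapped those of the C1Q gate (31.0 to 38.6 and 23.0 to 29.6). EGR1 went the other way, with 3 UMIs in collagen cells, a ratio of 0.23 to the CD34/GATA2 gate (0.047 to 0.67). Between the SPINK2 and CD34/GATA2 gates, EGR1 stood at 3.76 CPM against 9.52 CPM, JUN at 3.72 against 7.57 CPM, a ratio of 0.49 (0.38 to 0.62), and ATF3 at 2.55 against 1.01 CPM, a ratio of 2.53 (1.65 to 3.96). With 1 CPM added, EGR1 alone of the 3 was past 2 times. There 3.09% of genes averaging at least 5 CPM were that much lower. At 20 CPM, a minimum that EGR1 did not reach, it was 2.35%. ATF3 had 0 UMIs in the ELANE gate, with an exact interval up to 3.75 CPM and a floor of 3 counts at 3.05 CPM, so no fold was drawn there. HSPA1A had the narrowest range of the 10 members. Its levels ran from 16.9 to 24.98 CPM and every pair of neighbors in the order of gates had overlapping intervals. The C1Q interval (21.9 to 28.4) still lay above those of the CD34/GATA2 (15.6 to 18.5) and SPINK2 (15.3 to 18.5) gates. HSPA1A and HSPA1B are near-identical copies whose reads a counting program can split or drop, so the HSPA1A level (17.5 CPM in all cells) is uncertain beside that of HSPA1B (9.06 CPM). In 9 of 10 members, all but HSPA1A, the highest gate was at least 2 times the lowest, against 57.5% of 5662 genes averaging at least 20 CPM over the gates and 65.7% of those averaging at least 5 CPM. Differences between gates of that size were common among all genes.

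**Figure D1:**
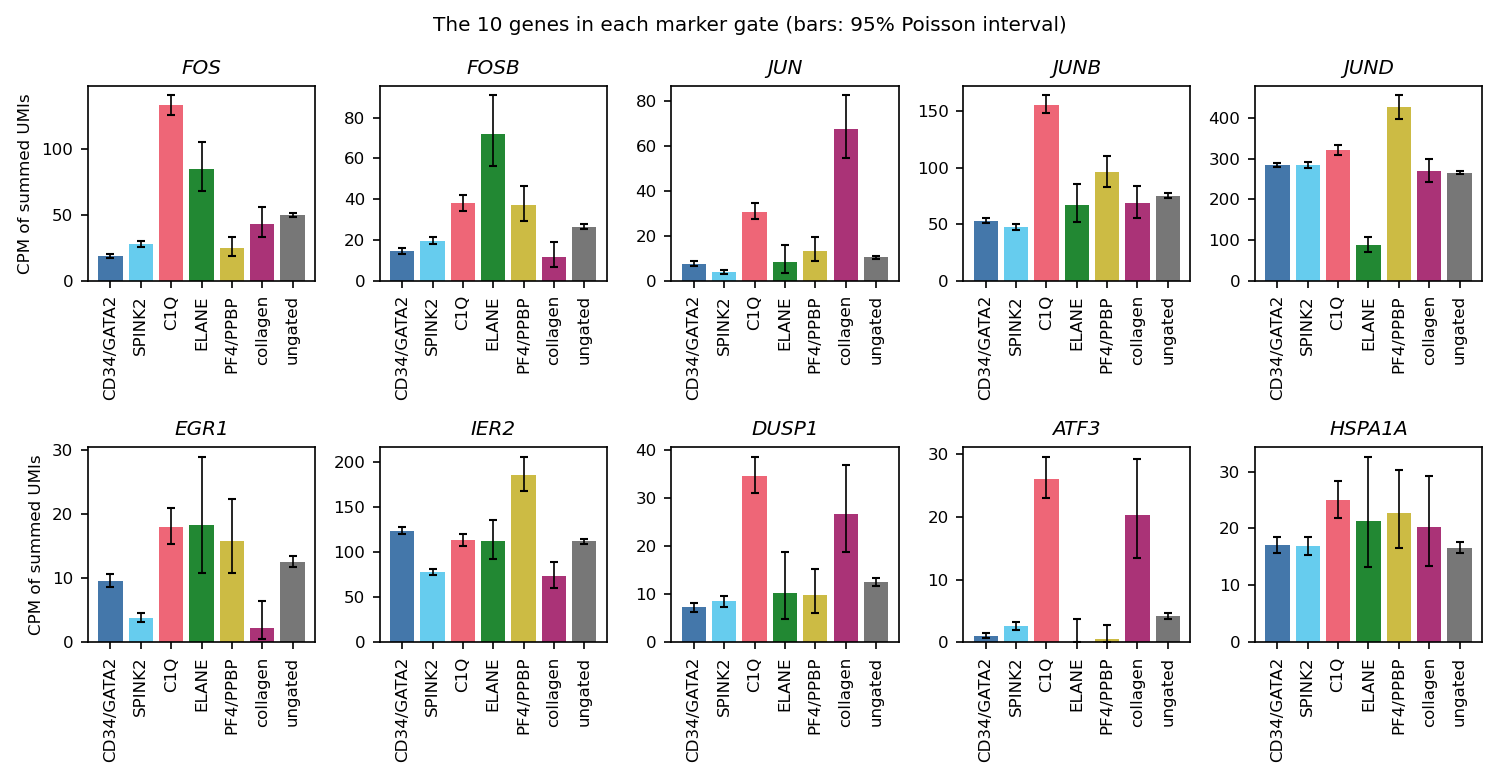
Each panel plots 1 gene, with summed CPM on the y axis and the 6 gates and the ungated cells on the x axis; bars start at 0 and whiskers are exact 95% Poisson intervals. FOS, JUNB, DUSP1 and ATF3 are tallest in the C1Q gate and JUN in the collagen gate. JUND is lowest in the ELANE gate, and HSPA1A has the narrowest range.

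Other genes of these responses were read from lists, and each list is given whole by its counts. The lists were chosen with earlier results of these data known. Of 37 further immediate early genes, 22 were at least 2 times higher in the C1Q gate than in the CD34/GATA2 gate and 2 were that much lower, with a median log2 difference of 1.18 against -0.13 over all genes tested. The highest was ZFP36L1, an RNA-binding protein that speeds decay of unstable messages, at 294 CPM against 16.1 CPM, and the lowest was GADD45A, a growth arrest gene, at 10.1 CPM against 52.0 CPM. Of 19 further heat shock genes, 1 was that much higher and 2 lower, with a median of -0.33, so that list lay near the background. The higher one was HSPA6, an HSP70 gene induced by strong stress, at 9.03 CPM against 0.24 CPM. Of 14 genes of the unfolded protein and amino acid stress responses, 2 were higher and 1 lower in the C1Q gate. In the ELANE gate, 7 of those 14 were at least 2 times higher, against 8.45% of all genes tested, led by the endoplasmic reticulum chaperone HSPA5 at 1382 CPM against 227 CPM. In the same gate only FOS and FOSB of the 10 members were 2 times higher. In the collagen gate, 20 of the 37 immediate early genes were higher and 4 lower (14.3% and 9.08% of all genes), the highest being CTGF, a matricellular gene, at 351 CPM against 0.41 CPM.

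**Figure D2:**
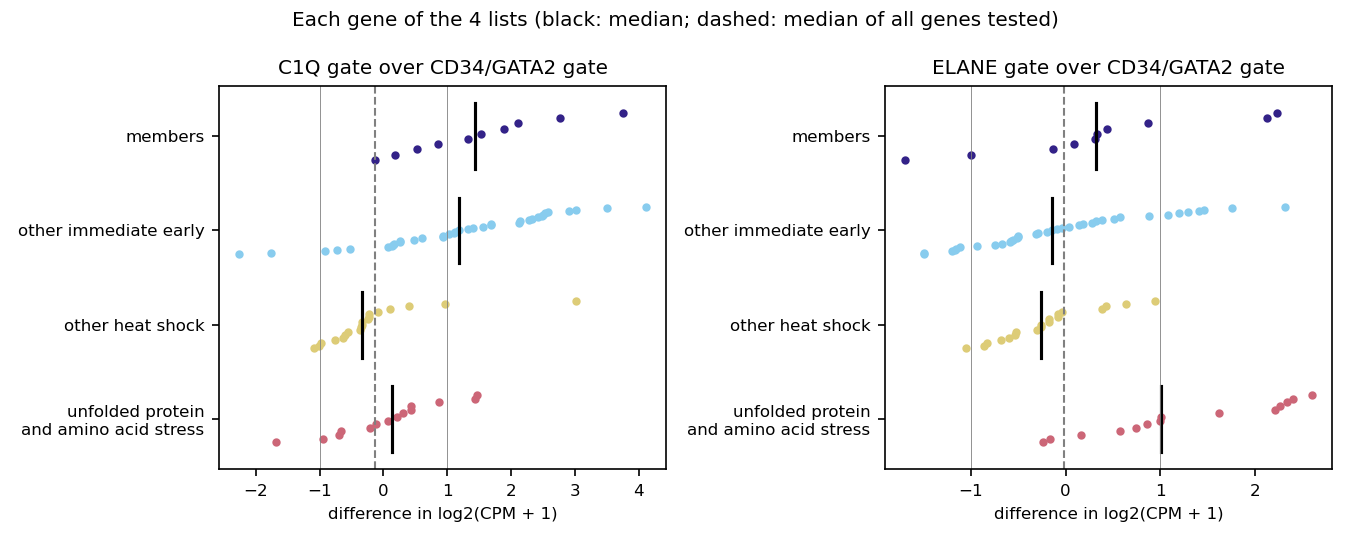
Each point is 1 gene of the 10 members or of the 3 lists, placed on the x axis by the difference in log2(CPM + 1) from the CD34/GATA2 gate, for the C1Q gate on the left and the ELANE gate on the right. In the C1Q gate the immediate early list has its median (black) at 1.18 and the heat shock list at -0.33, and in the ELANE gate the unfolded protein list has the median farthest above that of all genes (dashed line).

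Hashtags were compared within a gate, since they differ in their share of each gate. In the CD34/GATA2 gate, JUN was the 1 member at least 1.5 times apart between the highest and the lowest hashtag with 1 CPM added. Without that addition FOS reached a ratio of 1.51 (1.21 to 1.89) and ATF3, with few UMIs, 1.93 (0.70 to 5.80), and the count ran from 0 to 6 under the other settings tried in this gate. JUN stood at 9.96 CPM for hashtag 0252, 9.72 for 0253, 4.24 for 0254 and 4.10 for 0255, so both of the latter were below both of the former. The ratio of 0254 with 0255 to 0252 with 0253 was 0.43 (0.31 to 0.57), and 0.51 (0.35 to 0.73) among cells with 12 to 16% mitochondrial UMIs. Between the highest and the lowest hashtag, the share apart was 3.56% of genes averaging at least 20 CPM and 7.48% of those averaging at least 5 CPM. With no minimum it was 14.8%, so 1 of 10 members is a share near this background. Between the pairs, JUN was again the 1 member at least 1.5 times apart. There 1.14% of genes averaging at least 5 CPM were that much lower and 0.76% higher, and 1.23% were lower with no minimum. FOS in this gate lay between 14.5 and 21.9 CPM, JUND between 276 and 303 CPM, and HSPA1A between 15.5 and 17.8 CPM. The median mitochondrial share of the gate was 13.8 to 14.3% across hashtags.

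Among C1Q cells, 8 of 10 members differed by at least 1.5 times between hashtags, against 19.3% of genes averaging at least 20 CPM there and 36.1% of those averaging at least 5 CPM. FOS stood at 194 CPM for hashtag 0252, 149 for 0253, 83.3 for 0254 and 92.5 for 0255. The first pair was above the second, with a ratio of 0.51 (0.45 to 0.57) for 0254 with 0255 over 0252 with 0253. IER2 followed the same order of pairs, at 154, 107, 96.1 and 86.0 CPM, with a ratio of 0.71 (0.62 to 0.80). EGR1 was highest for 0252 at 29.1 CPM and stood at 14.4, 12.4 and 14.7 CPM for the others, while FOSB was lowest for 0254 at 18.8 CPM and between 42.9 and 47.7 CPM elsewhere. JUN gave 37.3, 33.8, 20.8 and 30.0 CPM, a ratio of 0.69 (0.54 to 0.88), but among cells with 12 to 16% mitochondrial UMIs that ratio was 1.10 (0.77 to 1.56).

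JUND and ATF3 ran against FOS in the same cells. JUND stood at 237 CPM for hashtag 0252, 261 for 0253, 379 for 0254 and 458 for 0255, a ratio of 1.65 (1.53 to 1.77) between the pairs. ATF3 stood at 16.7, 19.7, 29.6 and 45.4 CPM, a ratio of 1.97 (1.52 to 2.58). These ATF3 levels rested on few cells, since 10.0% of C1Q cells held any ATF3 UMI, up to 24 in a cell. The interval of ATF3 is therefore too narrow. Among thinned C1Q cells the variance of the ATF3 count was 3.21 times its mean, where counting error alone gives 1. It was 1.63 times for FOS and 1.69 times for JUND, so their intervals are too narrow as well. Among cells with 12 to 16% mitochondrial UMIs the ratios were 1.67 (1.52 to 1.83) for JUND, 2.19 (1.54 to 3.16) for ATF3 and 0.54 (0.46 to 0.63) for FOS. Between these pairs of hashtags 2 of 10 members were at least 1.5 times higher and 3 lower, namely FOS, FOSB and EGR1. Of genes averaging at least 5 CPM, 2.71% were that much higher and 5.48% lower. At 20 CPM, a minimum that EGR1 did not reach, the shares were 1.17% and 2.94%. FOSB and EGR1 did not separate the pairs, and their ratios of 0.64 and 0.62 became 0.75 (0.56 to 0.997) and 0.72 (0.48 to 1.06) among cells with 12 to 16% mitochondrial UMIs, no longer 1.5 times apart. HSPA1A was level, at 24.8, 26.2, 23.2 and 25.9 CPM, and so were DNAJB1, its co-chaperone, at 27.2 to 33.0 CPM and HSPA8, the constitutive family member, at 521 to 594 CPM. None of the 19 further heat shock genes differed by 1.5 times, whereas 8 of the 37 immediate early genes were lower and 4 higher. KLF4, a transcription factor of monocytes, was lowest at 2.15 CPM against 16.3 CPM, and BATF3, an AP-1 family partner, was highest at 23.1 CPM against 10.7 CPM.

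The makeup of the gate moved with these differences. There, MPO stood at 260, 187, 89.7 and 103 CPM for hashtags 0252, 0253, 0254 and 0255, and the median mitochondrial share at 12.7, 13.2, 14.6 and 14.1%. C1QA ranged from 553 to 684 CPM. The part of MPO-bearing cells in the hashtag differences was not tested. In ungated cells JUND gave 217, 235, 313 and 327 CPM, a ratio of 1.41 (1.37 to 1.45), and in SPINK2 cells 249, 240, 303 and 328 CPM, a ratio of 1.28 (1.22 to 1.35), while in CD34/GATA2 cells its ratio was 0.97 (0.93 to 1.01). The higher JUND of hashtags 0254 and 0255 was therefore present in 3 of these 4 groups of cells. FOS had ratios of 0.79 (0.74 to 0.85) in ungated cells, but 0.94 (0.85 to 1.04) among those with 12 to 16% mitochondrial UMIs, 0.93 (0.80 to 1.08) in SPINK2 cells and 0.87 (0.74 to 1.03) in CD34/GATA2 cells. In the SPINK2 gate 4 of 10 members, FOS, FOSB, EGR1 and ATF3, differed by 1.5 times between single hashtags, against 18.7% of all genes with no minimum. Of the members averaging at least 20 CPM, 1 of 4 did so against 2.70% of genes, and of those averaging at least 5 CPM, 2 of 7 against 9.05%. FOS was there highest for 0252, at 35.9 CPM, and lowest for 0253, at 19.2 CPM, so the pairs did not separate.

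The gate contrast itself was present in each hashtag. C1Q cells had 8.86, 8.60, 5.74 and 4.27 times the FOS of CD34/GATA2 cells in hashtags 0252, 0253, 0254 and 0255. JUN, JUNB, DUSP1 and ATF3 were also at least 2 times higher in each hashtag. FOSB was so in all but 0254 (1.51 times), and EGR1 in 0252 alone. The share of all genes past 2 times was not computed within a hashtag. JUND was 0.86 times the CD34/GATA2 level in the C1Q cells of both 0252 and 0253, but 1.37 and 1.61 times in those of 0254 and 0255. In this gene the sign of the gate contrast thus differed between hashtags.

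**Figure D3:**
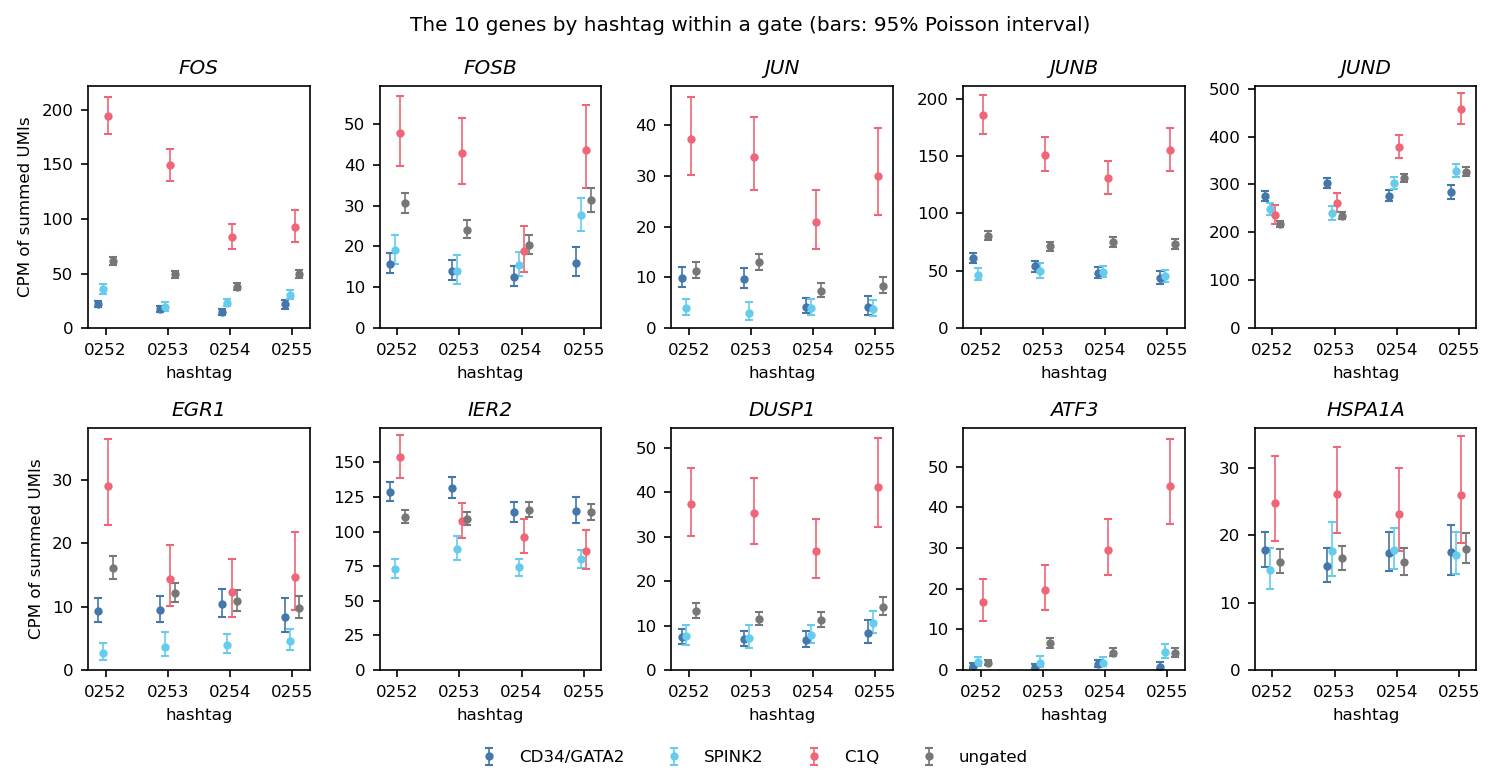
Each panel plots 1 gene, with summed CPM on the y axis and the 4 hashtags on the x axis; colors give the CD34/GATA2, SPINK2, C1Q and ungated cells, and bars are exact 95% Poisson intervals. In the C1Q gate FOS is at 194 CPM for hashtag 0252 and 92.5 for 0255 while JUND is at 237 and 458 CPM and HSPA1A lies between 23.2 and 26.2 CPM.

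Mitochondrial share was used as a further reading of cell condition, since a high share is commonly seen in damaged cells. Here levels are CPM over the UMIs of nuclear genes only (nuclear CPM), because mitochondrial UMIs lower the CPM of all other genes. In the CD34/GATA2 gate, HSPA1A stood at 28.9 in cells with up to 10% mitochondrial UMIs, 24.1 at 10 to 12%, 18.4 at 12 to 14%, 20.7 at 14 to 16% and 14.3 at 16 to 18%. Its ratio in cells above 16% to cells under 12% was 0.58 (0.41 to 0.80). The ratio was 0.38 (0.21 to 0.66) in the C1Q gate, from 35.9 to 13.7, 0.57 (0.43 to 0.74) in ungated cells, and 0.48 (0.19 to 1.002) in the SPINK2 gate, where 49 cells were above 16%. The interval thus lay below 1 in the CD34/GATA2, C1Q and ungated cells and just reached it in the SPINK2 gate. HSPA1B gave 0.41 (0.24 to 0.68) in the CD34/GATA2 gate and 0.48 (0.32 to 0.70) in ungated cells. In the C1Q and SPINK2 gates its intervals included 1, at 0.71 (0.27 to 1.67) and 0.76 (0.30 to 1.60). HSPA8 gave 0.74, 0.58, 0.65 and 0.65 in the CD34/GATA2, SPINK2, C1Q and ungated cells. Of the 19 further heat shock genes, 5, 10, 4 and 7 were at least 1.5 times lower in those groups, against 8.92, 11.3, 10.6 and 13.5% of all genes tested, and 1, 1, 0 and 0 higher, against 3.08, 7.79, 3.30 and 6.29%. The medians of their log2 differences were -0.45, -0.61, -0.37 and -0.27, against -0.10, -0.07, -0.08 and -0.11 over all genes tested.

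The AP-1 and other immediate early genes had no common direction with mitochondrial share. In the CD34/GATA2 gate HSPA1A alone was 1.5 times apart, 1 of 10 members. Of genes averaging at least 5 CPM, 9.99% were lower and 5.16% higher, so this share was near the background. JUNB was higher in high-mitochondrial cells of every group, by 1.32 times (1.11 to 1.56) in CD34/GATA2, 1.57 (1.16 to 2.10) in SPINK2, 1.27 (1.08 to 1.49) in C1Q and 1.51 (1.37 to 1.66) in ungated cells. FOS was 0.79 (0.57 to 1.09), 1.93 (1.36 to 2.67), 0.83 (0.69 to 1.003) and 0.63 (0.54 to 0.72) in the same order, so its direction differed between groups. C1Q cells had 3 members at least 1.5 times lower above 16%, against 15% of genes averaging at least 5 CPM. They were HSPA1A, JUN, at 56.1 nuclear CPM under 12% against 25.7 above 16%, and EGR1, whose interval of 0.30 to 1.10 included 1. Of the 9 members averaging at least 20 CPM, 2 were that much lower, against 10.6% of genes. SPINK2 cells had 4 members at least 1.5 times higher above 16%, namely FOS, JUN, JUNB and EGR1, and 1 lower, HSPA1A. Of genes tested there, 7.79% were higher and 11.3% lower, and 16.4% were higher with no minimum. The SPINK2 ratios of JUN (2.37, 0.82 to 5.62) and EGR1 (1.89, 0.58 to 4.75) had intervals that included 1. Depth moved with the bins, the median being 23223 UMIs under 12% and 18162 above 16% in CD34/GATA2 cells, 23188 and 15131 in SPINK2 cells, 12823 and 12382 in C1Q cells and 18545.5 and 14780 in ungated cells. Its part in the differences was not tested.

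**Figure D4:**
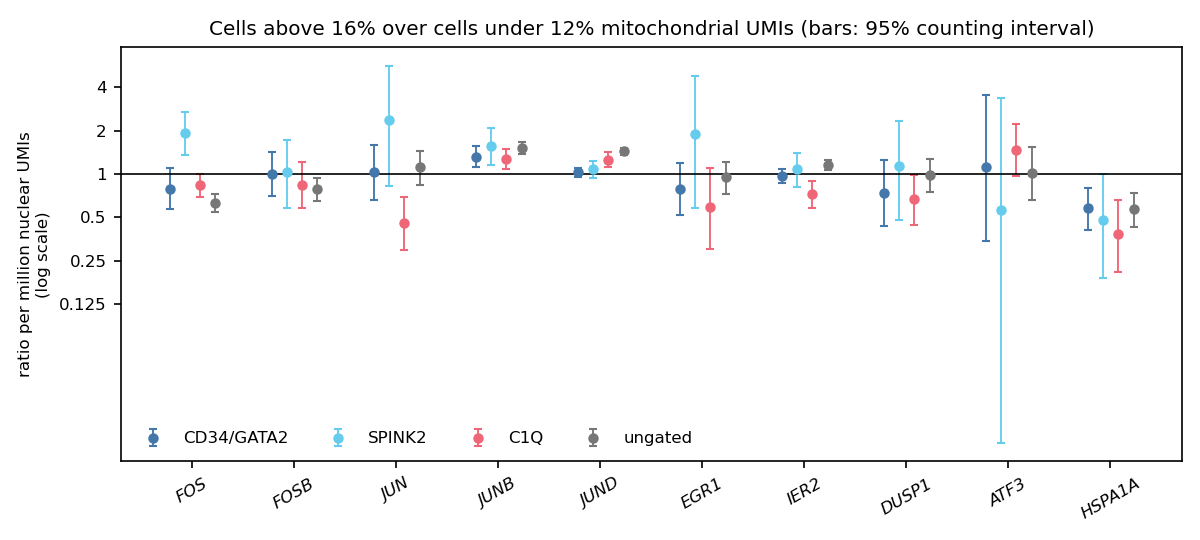
For each gene, points give the nuclear CPM in cells above 16% mitochondrial UMIs divided by that in cells under 12%, on a log axis, for the CD34/GATA2, SPINK2, C1Q and ungated cells; bars are 95% counting intervals and the line marks a ratio of 1. HSPA1A lies between 0.38 and 0.58 in all 4 groups and JUNB between 1.27 and 1.57.

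Whether the members were high in the same cells was read after every cell had been thinned at random to 5000 UMIs. Cells with at least 2 FOS UMIs were set against cells with 0, and FOS itself, which chose the cells, is not counted. With 115 against 361 cells of the C1Q gate, FOSB was 2.99 times higher in FOS-high cells (1.90 to 4.70), JUN 2.43 times (1.504 to 3.88), IER2 1.93 times (1.49 to 2.50), JUNB 1.87 times (1.49 to 2.33), DUSP1 1.68 times (1.04 to 2.67) and EGR1 1.67 times (0.85 to 3.17). These are 6 of the other 9 members, against 8.15% of genes tested. Hashtags were pooled here, with 0252 giving 57 of the 115 FOS-high and 76 of the 361 FOS-0 cells. The part of the hashtags in these ratios was not tested. JUND (0.85, 0.71 to 1.02) and HSPA1A (0.97, 0.48 to 1.85) did not differ by 1.5 times, and ATF3 was lower, at 0.26 (0.07 to 0.70), with 4 UMIs against 49. ATF3 UMIs lay in only 5.05% of the thinned C1Q cells, unevenly between them. Cells with at least 1 UMI of both FOS and ATF3 numbered 12, where the product of the shares gave 13.8. By numbers of cells the difference was thus small, at a ratio of 0.87. JUNB, IER2 and DUSP1 did not keep 1.5 times when cells were thinned to 8000 UMIs, which left FOSB, JUN and EGR1.

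In ungated cells (191 against 3094), the same 6 of 9 members were at least 1.5 times higher, against 8.19% of genes tested. JUN was 5.13 times higher (3.59 to 7.22), FOSB 5.00 times (3.91 to 6.34), EGR1 2.69 times (1.77 to 3.94), DUSP1 2.45 times (1.60 to 3.63), JUNB 2.43 times (2.05 to 2.85) and IER2 1.75 times (1.51 to 2.03). JUND stood at 0.93 (0.81 to 1.06) and HSPA1A at 1.11 (0.63 to 1.85). Cells chosen by HSPA1A were few, 21 ungated cells with at least 2 HSPA1A UMIs against 3583 with 0. In these DUSP1 was 6.94 times higher (3.28 to 12.97, 10 UMIs), JUNB 1.96 times (1.14 to 3.16) and JUND 1.67 times (1.23 to 2.23), with FOSB at 1.78 (0.58 to 4.19) and EGR1 at 2.04 (0.42 to 6.03), so that 5 of the other 9 members were at least 1.5 times higher where 24.2% of genes tested were. FOS stood at 1.44 (0.62 to 2.84) there, and JUN and ATF3 had 0 UMIs in those 21 cells. Only 7 CD34/GATA2 and 6 SPINK2 cells were HSPA1A-high. Of the other 9 members, 0 and 1 were higher in them, and 7 and 5 were lower. With no minimum, 15.1 and 15% of all genes were higher and 49.7 and 54.3% lower, so no pattern was read in these gates. Of the further lists in ungated cells, with cells chosen by FOS, 15 of 37 immediate early genes were higher and 6 lower, and 1 of 19 heat shock genes was higher and 1 lower. In the CD34/GATA2 gate only 20 cells were FOS-high, against 1439, and 3 of 9 members were higher where 20.7% of all genes were, so no pattern was read there.

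Other genes were named by their ratio in FOS-high cells, with no test of any theme. In the C1Q gate the largest ratios beside FOS were those of S100A8, a calcium-binding protein of neutrophils and monocytes, at 318 CPM against 47.1 CPM, F13A1 at 97.4 against 14.4 CPM and CSTA at 104 against 18.3 CPM. In ungated cells they were HP, at 127 against 16.9 CPM, VCAN at 117 against 15.6 CPM and S100A8 at 477 against 77.1 CPM. Their part in the shared difference of the members was not tested. FOS-high cells were also spread unevenly over hashtags in the C1Q gate, making up 30.3, 19.3, 7.23 and 12.3% of cells for 0252, 0253, 0254 and 0255. In ungated cells the shares were 7.25, 4.45, 3.61 and 4.22%. The part of this spread in the shared difference of the members was not tested. Those in the CD34/GATA2 gate, 1.64, 1.38, 0.493 and 1.65%, rested on 8, 6, 2 and 4 cells, so no pattern was read there. The median mitochondrial share of FOS-high cells was 13.1% against 13.7% in FOS-0 cells of the C1Q gate, and 11.9% against 12.99% in ungated cells.

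**Figure D5:**
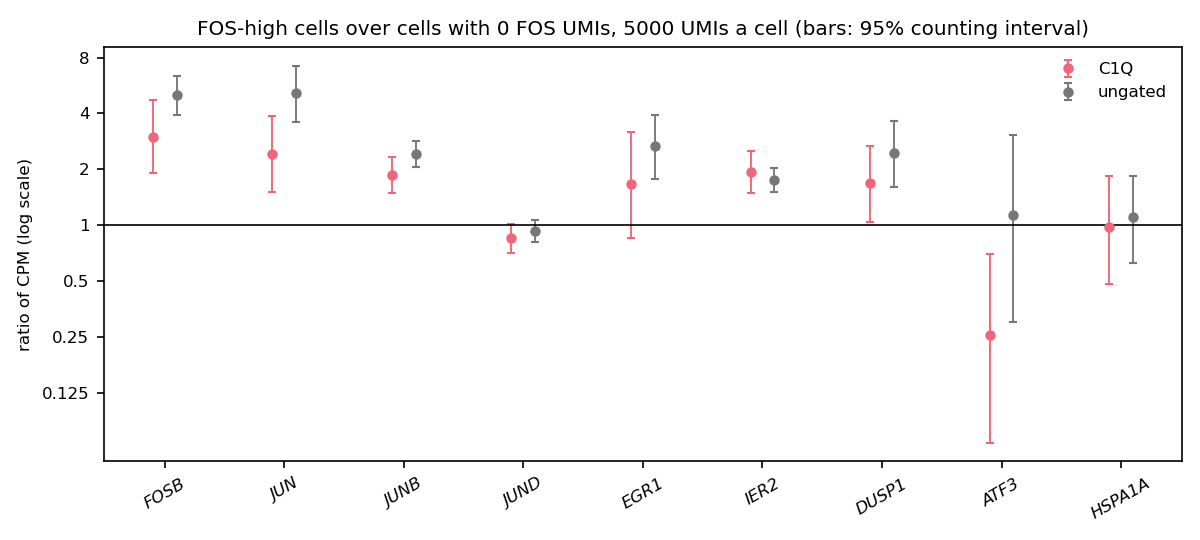
For each of the other 9 genes, points give CPM in FOS-high cells divided by CPM in cells with 0 FOS UMIs, on a log axis, in the C1Q gate and in ungated cells, with every cell thinned to 5000 UMIs; bars are 95% counting intervals. FOSB, JUN, JUNB, EGR1, IER2 and DUSP1 lie above 1 while JUND and HSPA1A lie near it.

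Across 21 groups of a gate and a hashtag with at least 10 cells each, the genes whose log2(CPM + 10) was most like that of FOS were FCGRT (Pearson's r = 0.952), TMEM176B (0.912), TPT1 (0.902), ABR (0.901) and METTL7A (0.894), among 5658 genes. FCGRT encodes the neonatal Fc receptor, which is abundant in macrophages. Among the members, DUSP1 (0.736) and JUNB (0.708) were most like FOS, and JUND (-0.311) and IER2 (-0.078) least. HSPA1A was most like DERL1 (0.780), a gene of endoplasmic reticulum protein disposal, and its r with FOS was 0.200. The groups share a library and, within a gate, a cell type, so these values are descriptions.

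On hg19 the genes lie at chr14:75745529-75748933 (FOS), chr19:45971253-45978437 (FOSB), chr1:59242517-59249720 (JUN), chr19:12902300-12904129 (JUNB), chr19:18390504-18392432 (JUND), chr5:137801168-137804992 (EGR1), chr19:13261225-13265725 (IER2), chr5:172195099-172198198 (DUSP1), chr1:212738676-212794119 (ATF3) and chr6:31783320-31785723 (HSPA1A). Over all kept cells they summed to 581.5 CPM, that is 0.0582% of all UMIs. JUND had 39619 UMIs and ATF3 664, of which a single cell held 24, so the relative counting error was smallest for JUND and largest for ATF3.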

How the data were processed

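Nonadherent day 5 cells were measured in 1 droplet library of gene and hashtag reads. The deposited matrix holds UMI counts, which the authors made from hg19 with Cell Ranger 6.0.1 (submitters' processing notes), and a deposited table gives each barcode's hashtag call. Cells with 1 call, at most 36000 UMIs, 6000 genes and 18% mitochondrial UMIs were kept, with 28522216 to 40416478 UMIs per hashtag. Gates needed 10 UMIs of the collagen (COL1A1, COL1A2, COL3A1), C1Q (C1QA, C1QB, C1QC), ELANE or PF4/PPBP genes, then 3 of SPINK2, then 2 each of CD34 and GATA2. Hashtag doublets were left out by call, and Scrublet (scanpy 1.11.5) served in an alternative.

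UMIs were summed per group in Python 3.11.15 (numpy 2.4.6, scipy 1.17.1), with exact Poisson intervals for CPM, exact conditional intervals for ratios and a pseudocount of 1 CPM for calls, which needed 2 times between gates and 1.5 times elsewhere. Backgrounds are shares of genes averaging at least 20 or 5 CPM. The code was tested on simulated data. All 10 members and the highest and lowest gene of each list are named, with other genes named after their values were seen. The members, lists and gates were chosen with earlier results of these data known. Gene positions are from a GENCODE lift to GRCh37 and promoters from RefSeq.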

Additional observations from a re-analysis of the deposited data

Results flagged for a closer look

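Barcodes left out of the comparisons also carried the 10 genes. The 809 barcodes with no hashtag call that passed the limits had 501.7 CPM of the 10 genes together, and the 541 cells above 18% mitochondrial UMIs had 644.6 CPM, against 581.5 CPM in the cells kept. Both are listed only because they lie outside the comparisons of the report and held UMIs of these genes (6404 and 3303), as any such group of cells would. Over the UMIs of nuclear genes only, the sum was 897 CPM in the cells above 18% against 668 CPM in the cells kept. FOS stood at 70.1 against 50.5 nuclear CPM, JUNB at 137 against 80.96 and HSPA1A at 16.8 against 20.1. The median was 9138 UMIs a cell against 18318.5. In the CD34/GATA2 gate (73 cells above 18%), FOS stood at 30.1 against 21.7, JUNB at 109 against 61.7 and HSPA1A at 14.5 against 19.7. DUSP1 and ATF3 were also lower there, and the other members higher. In the C1Q gate (48 cells), JUN, ATF3 and HSPA1A were lower and the others higher. In the SPINK2 gate (21 cells), JUN and HSPA1A were lower and the others higher. Some rested on few UMIs, such as JUN in the CD34/GATA2 gate on 16.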

How the results depend on the processing

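No paired analysis was possible because the series holds 1 library, whose hashtags carry no replicate numbers, and no value came from a test. The count of 9 members with a 2-fold range over gates was 9 under each of the 15 alternatives run for it. For hashtags in the CD34/GATA2 gate, 1 member was 1.5 times apart, and the count became 2 with gate minimums halved, 6 with them doubled, 2 by the mean over cells, 4 after thinning to 5000 UMIs, 0 with a pseudocount of 10 CPM and 2 in cells of 12 to 16% mitochondrial UMIs. It was 8 in the C1Q gate, 4 in the SPINK2 gate, 9 in the ELANE gate, 4 over all cells and 3 between hashtags 0252 and 0253 of the PF4/PPBP gate. The ELANE count by hashtag rested on 38, 25, 5 and 3 cells. Over all cells, 4.18% of genes averaging at least 20 CPM were that far apart, and 6.19% with no minimum. For the ELANE and PF4/PPBP gates and the other settings in the CD34/GATA2 gate the share of all genes was not computed. The C1Q count of 8 ran from 6 to 9 over 12 alternatives, chosen after the data were seen. For mitochondrial share, 1 member was apart, and 0 with a pseudocount of 10 CPM, 0 for above 15% against under 13%, 3 in the C1Q gate, 5 in the SPINK2 gate and 5 for cells above 18% against under 12%. The share of all genes was not computed for cells above 18%. The ELANE gate had too few cells above 16% for a value. In FOS-high CD34/GATA2 cells the count of 3 became 6 without Scrublet doublets. It became 2 with gate minimums halved, with them doubled and without limits on counts or genes. In the C1Q, SPINK2 and ELANE gates it was 6, 2 and 6. That ELANE count rested on 7 FOS-high against 47 FOS-0 cells, where 34.7% of genes averaging at least 20 CPM were higher. The C1Q count of 6 became 3 when thinned to 8000 UMIs.

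In the few FOS-high CD34/GATA2 cells (20 in the setting reported), some log2 values changed sign under other settings, and the cause was not tested. DUSP1, lower in the setting reported, gave 0.42 without limits on counts or genes, 1.07 without doublets, 0.54 at 8000 UMIs, 1.47 with another seed and 0.93 over all UMIs. ATF3 gave 2.67 without limits and 1.55 at 8000 UMIs, EGR1 -3.26 with gate minimums doubled, -0.039 without limits and -3.41 with another seed, and JUN -0.0046 at 8000 UMIs. Of the other values for single genes, 659 stayed within the counting error and 50 moved beyond it without a change of direction past the fold used. The 659 include FOS in its own FOS-high contrasts and genes with 0 UMIs in a compared group, which had no interval to leave. With genes averaging at least 5 CPM as the background, 2.71% were higher and 5.48% lower between the pairs of hashtags in C1Q cells, and 13.8% were higher in FOS-high C1Q cells and 12.7% in FOS-high ungated cells. Of the background shares recomputed at 5 CPM or with no minimum, 22 changed by more than 1.5 times and 26 stayed within 1.5 times. Depth limits ATF3, EGR1 and JUN in the small gates, where a few UMIs set the level.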
